A study of Mus musculus with 9 samples.

Results

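Complement is a system of plasma proteins and receptors, and 8 of its genes were followed among the 56860 genes of the table: C1qa, C1qb and C1qc, which encode the chains of C1q, C3, the central component, Cfb and Cfp, which encode factor B and properdin of the alternative pathway, and C3ar1 and C5ar1, the receptors of the anaphylatoxins C3a and C5a. The genes were taken by name, and all 8 had enough counts to be tested. C1q binds antibody complexes and dying cells and starts the classical pathway, factor B forms the enzyme that amplifies C3 cleavage, and properdin stabilises it. The cleavage fragments C3a and C5a attract and activate myeloid cells through their receptors. The liver makes most plasma C3 and factor B, whereas C1q comes mainly from macrophages and dendritic cells and properdin from neutrophils, monocytes and other leukocytes.

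RNA was sequenced from mouse spleen cells that the labels describe as CD4+ T cells, in 3 groups of 3 libraries. The groups were control mice, CIA mice, and CIA mice treated with the flavonoid luteolin (LUT), and RA and Th17 cells appear in the title of the series. Strain, age, dose, duration and what the control mice received are not given in the labels, nor whether a library is 1 animal or a pool, and the p-values therefore reflect only library-to-library spread, which may be technical. Libraries held 31234177 to 41815573 counts. Cd4, which defines the labelled cell type, was at 2.46 to 3.65 CPM (counts scaled to the library total) across control libraries, 82.1 to 151 across CIA and 98.5 to 106 with luteolin. The neutrophil gene S100a9 was above the T cell gene Cd3e in all 9 libraries, at 2879 or more against at most 11.8 per length (RPKM, the CPM per kilobase of exon). This pair was picked after its values were seen, and other pairs went the other way. In control the neutrophil gene Ly6g was at 0.336 to 0.381 RPKM, below Cd3e at 2.85 to 3.64. Cd4 thus went against the CD4+ label in the control libraries, and RNA of neutrophil genes such as S100a9 was present in every library. Pairs of CIA libraries lay further apart than pairs within the other groups (chi-square divided by its degrees of freedom 32.2 to 114, against 5.51 to 16.1). In bulk RNA, fewer cells of a type and less RNA per cell cannot be told apart.

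In CIA against control, 3 of the 8 genes rose (C3, C5ar1, C3ar1), where 26.6% of all 19348 tested genes did, and 4 fell (C1qa, C1qb, C1qc, Cfb), where 24.5% of all did. C1qc had too few counts for a test of control and CIA alone and entered through its luteolin libraries, and in a fit of only those groups 3 fell. With luteolin against CIA 6 rose and none fell, against 23.1% and 24.2% of all tested genes. None was lower at an unadjusted p under 0.05 in the main edgeR fit or at an adjusted p under 0.05 in DESeq2. In edgeR, C3 did pass as lower without a filter on low counts and without CIA replicate 1. In luteolin against control all 8 rose, against 24.2% of all. Over the 3 comparisons in turn, 51.1%, 47.3% and 45% of all tested genes changed in either direction, and 20.8% fell with luteolin against control. The groups did not overlap for 7, 6 and 8 of the 8 genes, where 58.7%, 55.7% and 63.3% of all tested genes did not overlap. The median log2 fold change of the 8 was -0.97, 3.67 and 2.26 in these comparisons, beside -0.01, -0.04 and -0.01 over all tested genes. The comparisons share libraries, so they do not stand independently of each other. Levels below are CPM scaled by TMM, changes are given on the log2 scale with the SE of the edgeR fit, and a gene is said to rise or fall where the adjusted p was under 0.05.

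**Figure D1:**
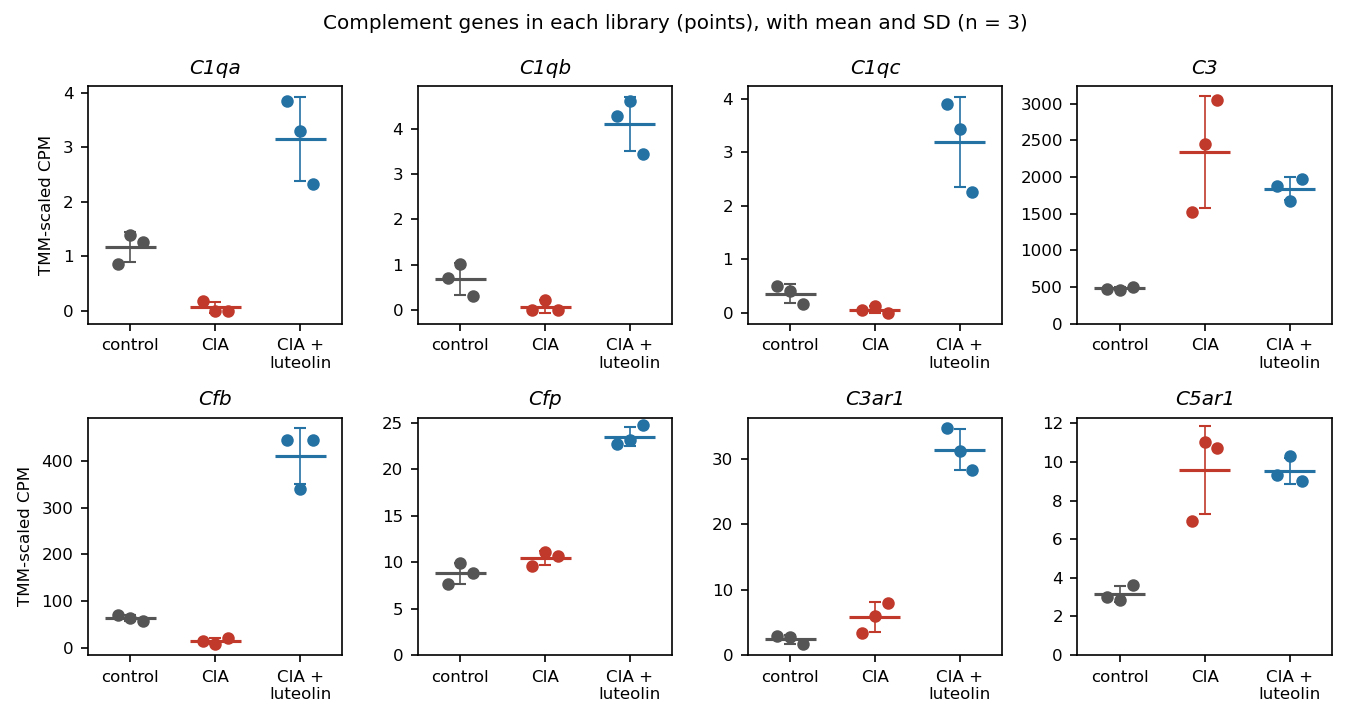
Level of each complement gene (vertical axis, TMM-scaled CPM, a separate linear scale per gene) in the 3 groups. Points are libraries, wide bars means and error bars SD (n = 3); C1qa, C1qb, C1qc and Cfb were lowest in CIA, C3 and C5ar1 were high in both CIA groups, and C3ar1 and Cfp were highest with luteolin.

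RefSeq promoter sequences (build GRCm38.p6) were at hand for 6 of the 8 genes. The 250 bases before the start are shown for C1qb and C1qc, which moved together, and for C3 and C3ar1, which moved differently. All 4 lie on the minus strand and are written 5′ to 3′, with C1qb at chr4:136886201-136886450, C1qc at chr4:136892915-136893164, C3 at chr17:57228137-57228386 and C3ar1 at chr6:122856158-122856407. Capitals mark matches on either strand to the core bound by the myeloid factor PU.1 (GAGGAA) or to a loose kappa B pattern (GGG, any 5 bases, CC).
C1qb: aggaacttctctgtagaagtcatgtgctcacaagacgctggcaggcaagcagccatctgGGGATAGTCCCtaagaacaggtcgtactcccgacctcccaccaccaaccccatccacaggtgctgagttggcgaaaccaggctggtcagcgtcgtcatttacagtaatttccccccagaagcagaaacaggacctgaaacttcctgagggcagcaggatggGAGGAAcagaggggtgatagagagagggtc
C1qc: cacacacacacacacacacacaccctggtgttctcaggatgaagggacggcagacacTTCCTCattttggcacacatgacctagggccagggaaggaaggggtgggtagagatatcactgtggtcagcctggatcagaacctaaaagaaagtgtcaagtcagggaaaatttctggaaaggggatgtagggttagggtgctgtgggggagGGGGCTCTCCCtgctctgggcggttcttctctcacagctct
C3: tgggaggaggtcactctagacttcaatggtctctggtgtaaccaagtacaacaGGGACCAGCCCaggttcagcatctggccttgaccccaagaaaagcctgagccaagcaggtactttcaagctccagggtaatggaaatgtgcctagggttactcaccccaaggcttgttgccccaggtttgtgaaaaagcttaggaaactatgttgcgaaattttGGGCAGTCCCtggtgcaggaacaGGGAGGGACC
C3ar1: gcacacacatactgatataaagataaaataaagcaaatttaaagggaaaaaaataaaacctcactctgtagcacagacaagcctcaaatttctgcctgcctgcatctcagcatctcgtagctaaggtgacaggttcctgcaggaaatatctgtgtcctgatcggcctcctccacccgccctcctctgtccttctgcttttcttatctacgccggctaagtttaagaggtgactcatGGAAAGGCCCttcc
The PU.1 letters were in 2 of the 6 promoters, those of C1qb and C1qc, and in 23.3% of the 32851 promoters of the table. The kappa B pattern was in 5 of the 6, all but C5ar1, and in 45.8% of all, and it has an overlapping match on the other strand in C1qb, C1qc and C3. Neither the interferon-gamma site GAS (TTCNNNGAA, in 7.02% of all promoters) nor the interferon-stimulated core (GAAA, any 2 bases, GAAA, in 2.98%) occurred in these windows of the 6 genes.

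The 3 C1q genes, which lie side by side on chromosome 4 (build mm39, minus strand; C1qb at 136607440 to 136613498, C1qc at 136617115 to 136620376, C1qa at 136623228 to 136626114), were nearly silent in CIA and highest with luteolin. C1qa, the A chain, had 34, 54 and 40 counts in control replicates 1, 2 and 3, then 6, 0 and 0 in CIA and 162, 131 and 78 with luteolin. C1qb, the B chain, had 28, 40 and 10 counts in control, 0, 8 and 0 in CIA and 180, 183 and 116 with luteolin. C1qc, the C chain, had 20, 16 and 5 counts in control, 2, 4 and 0 in CIA and 164, 136 and 76 with luteolin. For each chain all CIA libraries lay below all others and all luteolin libraries above, and CIA replicate 3 had no count of any chain. C1qa averaged 1.17 ± 0.280 CPM in control, 0.0556 ± 0.0963 in CIA and 3.15 ± 0.775 with luteolin (SD, n = 3). C1qb averaged 0.680 ± 0.354, 0.0780 ± 0.135 and 4.11 ± 0.598 CPM across those groups, and C1qc 0.356 ± 0.177, 0.0575 ± 0.0585 and 3.19 ± 0.842.

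All 3 chains fell in CIA in the fit of all 9 libraries, where C1qc passed the filter on low counts only through luteolin. C1qa changed by -4.22 ± 0.67 on the log2 scale (edgeR adjusted p = 0.000561), C1qb by -3.07 ± 0.79 (edgeR adjusted p = 0.00835) and C1qc by -2.55 ± 0.70 (edgeR adjusted p = 0.0116). These folds rest on 6, 8 and 6 counts in CIA. The summed counts of C1qa were 19.4-fold lower than in control, with an exact 95% interval of 6.33 to 96.4 for counting error alone, after counts were halved because each fragment appears to add a count for either mate. For C1qb the summed counts were 8.85-fold lower (3.19 to 34.1) and for C1qc 6.20-fold lower (1.79 to 31.8). Every count of C1qa in CIA came from replicate 1 and every count of C1qb from replicate 2. A count of 0 allows up to 3 fragments, or 6 counts, in a library, which in the other 2 CIA libraries is 0.187 CPM for C1qa and 0.183 for C1qb. Without CIA replicate 1, C1qa was at least 6.24-fold lower in CIA than in control, and without CIA replicate 2, C1qb was at least 3.73-fold lower. The fitted change of C1qb was -2.47 without CIA replicate 1, and that of C1qc was -3.46 without CIA replicate 2.

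With luteolin the chains rose by nearly the same amount over CIA: C1qa by 5.65 ± 0.63 (edgeR adjusted p = 4.84e-05), C1qb by 5.63 ± 0.69 (edgeR adjusted p = 9.72e-05) and C1qc by 5.67 ± 0.57 (edgeR adjusted p = 2.69e-05). As summed counts these are ratios of 53.7 (interval 18.1 to 264), 52.0 (20.1 to 193) and 54.4 (18.3 to 266). Without CIA replicate 1, C1qa was at least 16.9-fold higher with luteolin and C1qb changed by 5.03. Without CIA replicate 2, C1qb was at least 22.5-fold higher and C1qc changed by 6.58. Against control the rises were 1.44 ± 0.41 for C1qa (edgeR adjusted p = 0.0153), 2.57 ± 0.50 for C1qb (edgeR adjusted p = 0.00198) and 3.12 ± 0.43 for C1qc (edgeR adjusted p = 0.000251). C1qa did not pass in that comparison without control replicate 1 (1.25, edgeR adjusted p = 0.0687) or without luteolin replicate 1 (1.27, edgeR adjusted p = 0.0734).

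The balance between the chains, which does not depend on the scaling of a library, was compared between control and luteolin. The count of C1qc was 0.588, 0.296 and 0.125 of that of C1qa in the control replicates and 1.01, 1.04 and 0.974 with luteolin. On the log2 scale per length, the ratio of C1qc to C1qa was 1.85 higher with luteolin (-0.88 ± 0.046 against -2.73 ± 1.12, SD, n = 3), and the groups did not overlap. The exact 2-sided permutation p was 0.1, the smallest that 3 against 3 allows, and 0.15 when adjusted over the 3 pairs of chains. For C1qa to C1qb the difference was -1.31 (p = 0.1, adjusted 0.15, exact permutation) and for C1qc to C1qb 0.54 (p = 0.2, adjusted 0.2, exact permutation). The wide spread in control comes with counts as low as 5 for C1qc and 10 for C1qb in replicate 3.

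**Figure D2:**
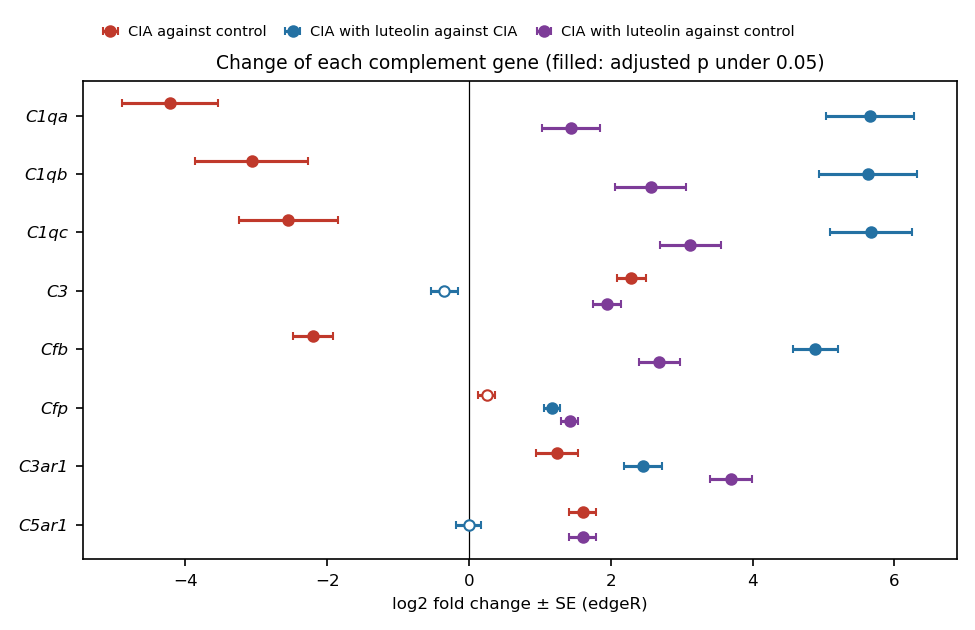
Log2 fold change ± SE from edgeR (horizontal axis) of each gene in the 3 comparisons, filled where the adjusted p was under 0.05. C1qa, C1qb, C1qc and Cfb lie below 0 in CIA against control and between 4.88 and 5.67 with luteolin against CIA, whereas C3 and C5ar1 lie near 0 in the latter.

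Cfb, the serine protease subunit of the alternative pathway convertase (chromosome 17, 35075350 to 35081494, build mm39, minus strand), had the same order of groups as C1q and, per length, stood above it in every group. The control replicates gave 70.5, 63.3 and 57.7 CPM, CIA 14.9, 7.08 and 19.8, and luteolin 445, 341 and 446. No library of one group reached the range of another. Cfb changed by -2.20 ± 0.29 in CIA (edgeR adjusted p = 0.000175), by 4.88 ± 0.32 with luteolin over CIA (edgeR adjusted p = 1.14e-06) and by 2.69 ± 0.28 with luteolin over control (edgeR adjusted p = 4.43e-05). The gene model Gm20547, which joins the exons of Cfb and its neighbour C2, covers 79.5% of the exonic bases of Cfb and held 96.9% as many counts, so the same reads appear to have been counted for both. Of the exonic bases of C2, 42.8% lie in Gm20547 too, yet C2 held only 620 counts over all libraries against 54133 for Gm20547. Cfb exceeded Gm20547 by 108, 72 and 40 counts in control, by 16, 2 and 28 in CIA and by 626, 412 and 402 with luteolin, the same order of the groups without overlap.

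Cfp, properdin, which holds the alternative convertase together (chromosome X, 20791693 to 20797794, build mm39, minus strand), rose with luteolin. It was at 7.65, 9.86 and 8.86 CPM in control, 9.59, 11.1 and 10.7 in CIA and 22.7, 23.1 and 24.7 with luteolin. Control and CIA overlapped, and the change between them did not pass (0.25 ± 0.12, edgeR adjusted p = 0.0990). Luteolin libraries lay above all others, with a rise of 1.17 ± 0.12 over CIA (edgeR adjusted p = 2.41e-05) and 1.42 ± 0.12 over control (edgeR adjusted p = 9.18e-06).

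C3, the component that every pathway cleaves (chromosome 17, 57510970 to 57535136, build mm39, minus strand), was, per length, the most abundant of the 8 in every group. Its level was 472, 463 and 499 CPM in control, 1522, 2449 and 3047 in CIA and 1881, 1672 and 1967 with luteolin. All libraries of CIA and of luteolin lay above control, and those of CIA and luteolin overlapped. C3 rose by 2.29 ± 0.20 in CIA, which is 4.90-fold (edgeR adjusted p = 1.71e-05), and by 1.95 ± 0.20 with luteolin over control (edgeR adjusted p = 3.47e-05). The change with luteolin over CIA did not pass (-0.35 ± 0.19, edgeR adjusted p = 0.161). Leaving out CIA replicate 1, the lowest of that group, made it pass (-0.57, edgeR adjusted p = 0.000548). Per length, C3 ranked 535 of 19348 tested genes in control, 84 in CIA and 111 with luteolin.

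The ratio of Cfb to C3 within a library showed how far these partners of the alternative pathway moved apart. Per length it was 0.210 to 0.272 in control, 0.00526 to 0.0179 in CIA and 0.372 to 0.431 with luteolin. The 3 groups did not overlap in this ratio, which is described here without a test.

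C3ar1, the receptor for C3a (chromosome 6, 122824097 to 122833120, build mm39, minus strand), rose in CIA and rose again with luteolin. It was at 2.85, 2.72 and 1.65 CPM in control, 3.39, 5.91 and 8.01 in CIA and 34.7, 31.3 and 28.4 with luteolin. The groups did not overlap, with the CIA libraries spread over a wide range. Its rise was 1.24 ± 0.29 in CIA (edgeR adjusted p = 0.00496), 2.45 ± 0.27 with luteolin over CIA (edgeR adjusted p = 4.88e-05) and 3.70 ± 0.29 with luteolin over control (edgeR adjusted p = 7.11e-06).

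C5ar1, the receptor through which C5a recruits neutrophils (chromosome 7, 15980668 to 15993465, build mm39, minus strand), rose in CIA and was at a like level with luteolin. It was at 3.0, 2.84 and 3.61 CPM in control, 6.95, 11.1 and 10.7 in CIA and 9.33, 10.3 and 9.03 with luteolin. CIA and luteolin libraries overlapped and both lay above control. C5ar1 rose by 1.61 ± 0.19 in CIA (edgeR adjusted p = 9.79e-05) and by 1.60 ± 0.19 with luteolin over control (edgeR adjusted p = 8.40e-05), and its change with luteolin over CIA was -0.00071 ± 0.18 (edgeR adjusted p = 0.998), which does not show that the levels are equal. The second C5a receptor C5ar2, which couples poorly to G proteins and is not among the 8, rose in CIA by 2.73 ± 0.21 and fell with luteolin over CIA by 1.12 on the log2 scale (SE 0.19; edgeR adjusted p = 8.70e-06 and 0.000806).

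Within a library, C3ar1 stood at 0.272 to 0.570 of C5ar1 per length in control, 0.291 to 0.446 in CIA and 1.81 to 2.22 with luteolin, so the order of the 2 anaphylatoxin receptors was reversed in every luteolin library. C5ar2 stood at 0.289 to 0.436 of C5ar1 in control, 0.651 to 0.884 in CIA and 0.354 to 0.378 with luteolin. In this ratio CIA lay apart from both other groups.

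**Figure D3:**
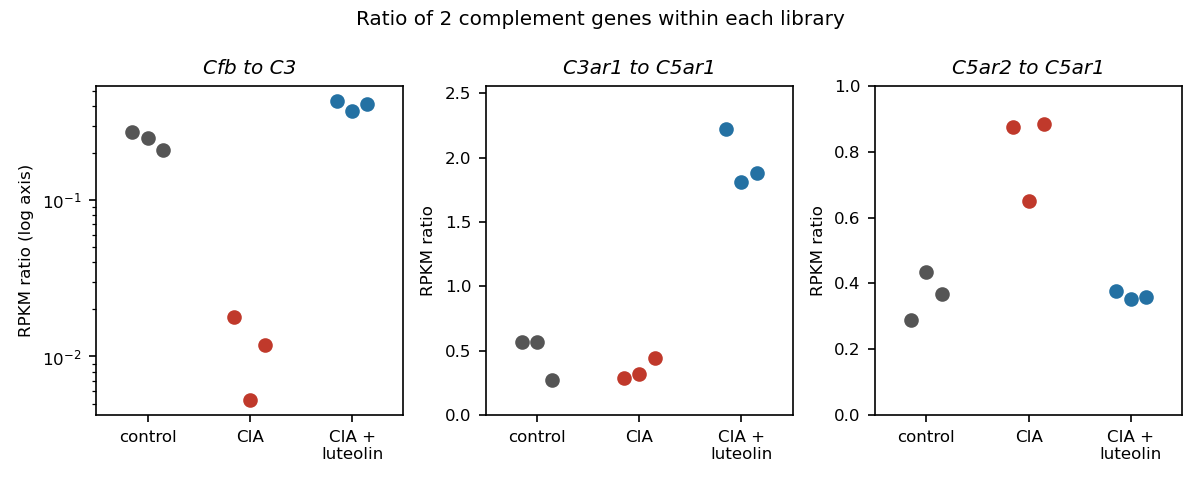
Ratio of the RPKM values of a pair of genes within each library (vertical axis; logarithmic for Cfb to C3, linear from 0 for the others), by group, each point a library. Cfb to C3 is under 0.02 in every CIA library and at least 0.210 in all others, and C3ar1 to C5ar1 exceeds 1.8 only in the luteolin libraries.

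In RPKM the order of the 8 genes differed between groups. In control it ran from C3 (92.9 ± 3.68 RPKM, SD, n = 3) through Cfb (22.6 ± 2.27), Cfp (5.06 ± 0.637), C5ar1 (1.23 ± 0.157), C1qa (1.12 ± 0.269), C1qb (0.625 ± 0.326) and C3ar1 (0.558 ± 0.153) to C1qc (0.184 ± 0.0918). The libraries of C5ar1 and C1qa, of C1qa and C1qb and of C1qb and C3ar1 overlapped there. In CIA Cfp (6.03 ± 0.458) stood above Cfb (4.93 ± 2.27), and the neighbours from Cfp through Cfb to C5ar1 overlapped, as did the C1q chains at 0.0298 to 0.0717 RPKM on average. With luteolin Cfb (145 ± 21.3) was again next to C3 (358 ± 29.5), C3ar1 (7.31 ± 0.737) stood above C5ar1 (3.72 ± 0.263), and C1qb (3.78 ± 0.550), C5ar1 and C1qa (3.03 ± 0.745) overlapped as neighbours.

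The rest of the pathway was read from a list of 50 other complement genes, of which 28 were tested. The 22 others, among them Cfd, which encodes the protease that activates factor B, and the terminal components C6, C7, C8a, C8b and C9, reached at most 0.522 CPM in any library. Of the 28, 4 rose and 8 fell in CIA, 16 rose and 6 fell with luteolin over CIA, and 12 rose and 4 fell with luteolin over control. Of all tested genes 26.6% rose and 24.5% fell in CIA, 23.1% and 24.2% with luteolin over CIA, and 24.2% and 20.8% with luteolin over control. The median log2 fold change was -0.16, 0.73 and 0.68, beside the -0.01, -0.04 and -0.01 of all tested genes given above. Without CIA replicate 1, 7 of the list rose in CIA. Ptx3, among the 8 that fell in CIA, had too few counts for a test of control and CIA alone and entered through its luteolin libraries. Its control and CIA libraries overlapped. Its change of -3.01 ± 0.93 did not pass without CIA replicate 2 (-2.43, edgeR adjusted p = 0.0665) or without control replicate 2 (-2.37, edgeR adjusted p = 0.0862).

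Among the initiators of the classical and lectin pathways 7 of 10 tested genes rose with luteolin over CIA and 1 fell, against 23.1% and 24.2% of all tested genes. Fcnb, the ficolin of maturing myeloid cells, was at 1.01 to 1.54 CPM in control, 0.761 to 1.65 in CIA and 77.5 to 96.9 with luteolin, a rise over CIA of 6.18 ± 0.24 (edgeR adjusted p = 3.93e-08). The azurophil granule genes Mpo and Elane, which mark neutrophil precursors, also rose with luteolin over CIA. Mpo went from 1.26 to 1.92 CPM in CIA to 241 to 293 with luteolin, and Elane from 0.117 to 0.334 to 24.5 to 29.8. They were picked after their values were seen, and of 13 neutrophil markers 5 rose and 7 fell in that comparison. In CIA against control Elane rose by 2.19 ± 0.63, whereas Fcnb did not pass (-0.20 ± 0.26, edgeR adjusted p = 0.542). That rise of Elane rests on 4, 2 and 0 counts in control and 12, 4 and 10 in CIA. These were too few for a test of control and CIA alone, and Elane entered through its luteolin libraries. The part of neutrophil precursors in the rise of Fcnb was not tested. The other 6 initiators that rose had a mean under 2 CPM over the libraries and are named after their values were seen. They were C1ra and C1s1, the proteases that C1q carries (2.79 ± 0.27 and 2.68 ± 0.58), their substrates C2 and C4b (1.10 ± 0.23 and 2.19 ± 0.58), and the lectins Fcna and Colec12 (2.82 ± 0.74 and 2.21 ± 0.44). C1s1 changed by 3.93 without CIA replicate 3, C4b by 3.67 without CIA replicate 2 and Fcna by 3.57 without CIA replicate 3. Fcna had too few counts for a test of CIA and luteolin alone and entered that comparison through its control libraries. C2, Fcna and Colec12 were also those that fell in CIA, by 0.96, 3.50 and 1.61 on the log2 scale. C2 shares 42.8% of its exonic bases with Gm20547 on the same strand, and 4.16% lie opposite Zbtb12. Gm20547 changed by -2.20 ± 0.28 in CIA and by 4.89 ± 0.31 with luteolin over CIA. The part of shared reads in the changes of C2 was not tested. Fcna fell by 4.25 without CIA replicate 3, and Colec12 did not pass without CIA replicate 2 (-1.37, edgeR adjusted p = 0.0501). Masp2, a lectin pathway protease, fell by 0.48 with luteolin, but 54.9% of its exonic bases lie opposite Tardbp, which held far more counts, so the 2 cannot be told apart.

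Regulators on the cell surface protect host cells from complement. Of the 4 tested membrane regulators 2 fell with luteolin over CIA, too few genes to set against the 24.2% of all tested genes that fell. Cd55, the decay accelerating factor, was at 247 to 267 CPM in control, 161 to 241 in CIA and 88.3 to 92.8 with luteolin, and it fell with luteolin over CIA by 1.07 on the log2 scale (SE 0.13; edgeR adjusted p = 0.000107). In CIA against control it changed by -0.44 ± 0.13 (edgeR adjusted p = 0.0171), which did not pass without CIA replicate 2 (-0.37, edgeR adjusted p = 0.0691) or without control replicate 1 (-0.42, edgeR adjusted p = 0.0552). Cd46, a cofactor for C3b cleavage, rose by 1.01 ± 0.20 in CIA and fell by 1.53 on the log2 scale with luteolin (SE 0.21, edgeR adjusted p = 0.00205 and 0.000179). Of the exonic bases of Cd46, 14.2% lie opposite A330023F24Rik, which held 6604 counts against 3051 for Cd46. The part of reads from that gene in the changes of Cd46 was not tested. Cr1l, a receptor-like inhibitor of C3 deposition, changed by -0.47 ± 0.13 with luteolin over control (edgeR adjusted p = 0.0138), which did not pass without control replicate 3 (-0.42, edgeR adjusted p = 0.0518) or without luteolin replicates 2 or 3 (-0.45 and -0.42, edgeR adjusted p = 0.0542 and 0.0648). Among the soluble regulators, clusterin (Clu) rose with luteolin over CIA by 2.49 ± 0.25 (edgeR adjusted p = 2.58e-05).

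Of 10 tested receptors and binding proteins 7 rose and 3 fell with luteolin over CIA, where 23.1% and 24.2% of all tested genes did. Ptx3, named after its values were seen, had the largest rise of these (5.34 ± 0.81, edgeR adjusted p = 0.000403). It had 0, 0 and 6 counts in CIA and 106, 96 and 96 with luteolin. Lrp1, an endocytic receptor that takes up C1q-bound cells, was at 63.9 to 75.3 CPM in control, 23.0 to 47.7 in CIA and 314 to 378 with luteolin, a fall of 1.02 on the log2 scale in CIA (SE 0.21; edgeR adjusted p = 0.00234) and a rise of 3.31 ± 0.22 with luteolin (edgeR adjusted p = 1.42e-06). Cd93, a C-type lectin-like receptor once described as a C1q receptor, went the same way, with -0.72 ± 0.15 and 1.55 ± 0.15 (edgeR adjusted p = 0.00268 and 2.27e-05). Itgam and Itgb2, the subunits of complement receptor 3, rose in CIA (1.49 ± 0.13 and 0.58 ± 0.10) and further with luteolin (0.52 ± 0.12 and 0.67 ± 0.10), although 68.7% of the exonic bases of Itgam are shared with Gm49368. Cr2, the C3d receptor of B cells and follicular dendritic cells, was at 215, 116 and 26.3 CPM in CIA replicates 1, 2 and 3 and at 15.1 to 19.6 with luteolin, and it changed by -2.83 ± 0.56 with luteolin over CIA (edgeR adjusted p = 0.00204; -2.08 without CIA replicate 1). In the same CIA libraries the summed level of 7 B cell markers ranged from 272 to 1520 CPM, and its part in the result was not tested. C5ar2, described above, and Itgax also fell with luteolin over CIA; Itgax, the alpha chain of complement receptor 4, changed by -0.82 ± 0.23 (edgeR adjusted p = 0.0146) and did not pass without luteolin replicate 2 (-0.69, edgeR adjusted p = 0.0729). Calreticulin (Calr), a chaperone that binds C1q, rose with luteolin over CIA by 1.26 ± 0.10 (edgeR adjusted p = 5.91e-06), and C1qbp, a largely mitochondrial protein that binds C1q, by 0.79 ± 0.14 after a change of -0.99 ± 0.14 in CIA (edgeR adjusted p = 0.000928 and 0.000245).

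**Figure D4:**
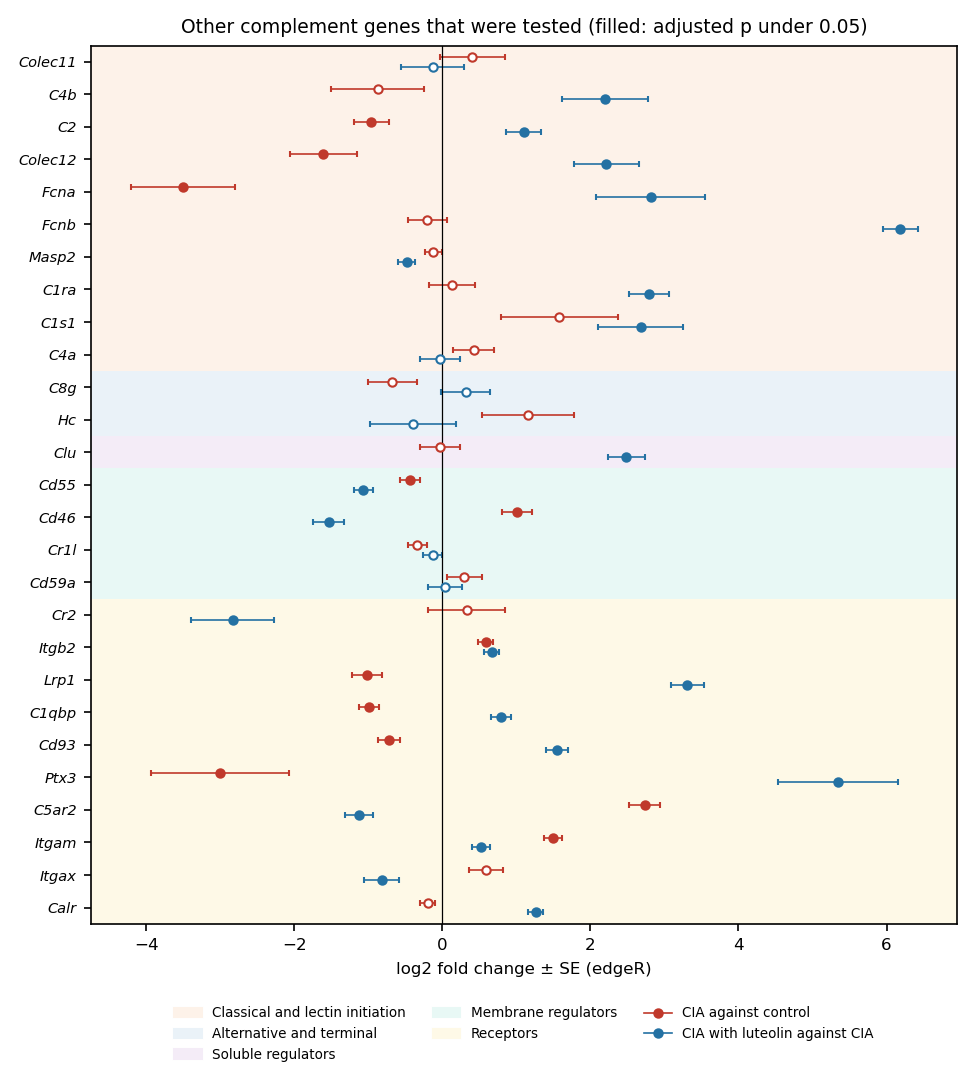
Log2 fold change ± SE from edgeR (horizontal axis) of 27 of the 28 tested genes of the list, by role (shading), for the comparisons of CIA with control and of luteolin with CIA, filled where the adjusted p was under 0.05. Fcnb has the largest rise in luteolin against CIA, at 6.18, and the membrane regulators Cd55 and Cd46 lie below 0 in that comparison.

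Markers of 8 cell types were read beside these genes, with sums of their CPM per library. The counts of markers stand beside the shares of all tested genes. These were 26.6% higher and 24.5% lower in CIA, 23.1% and 24.2% with luteolin over CIA, and 24.2% and 20.8% with luteolin over control. Of 15 macrophage markers 10 fell and 3 rose in CIA, 13 rose and none fell with luteolin over CIA, and 10 rose and 1 fell with luteolin over control; their sum was 670 to 684 CPM in control, 628 to 1112 in CIA and 1119 to 1404 with luteolin. The efferocytosis receptor Mertk was at 2.91 to 4.33 CPM in control, 0.0878 to 0.397 in CIA and 15.4 to 17.0 with luteolin, the adhesion gene Vcam1 at 7.53 to 11.4, 0.612 to 0.907 and 34.4 to 37.1, and Siglec1 at 0.949 to 1.43, 0 to 0.132 and 14.8 to 17.5, the order of groups seen for C1q and Cfb. These 3 were picked after their values were seen, and other markers of the list did not have that order: Spic was at 33.5 to 38.0, 5.62 to 9.15 and 22.3 to 23.4 CPM, the changes of Marco and Cd5l with luteolin over control did not pass, those of Csf1r and Adgre1 in CIA did not pass, and Axl, Cd163 and Hmox1 rose in CIA. Cd163 had too few counts for a test of control and CIA alone and entered through its luteolin libraries. Its control and CIA libraries overlapped (edgeR adjusted p = 0.0498). No macrophage marker was at 0 in a whole group. The heme oxygenase gene Hmox1 was at 440 to 865 CPM in CIA and made up most of the sum there. All 6 monocyte markers rose with luteolin over CIA, from a sum of 31.5 to 36.3 CPM to 230 to 247, beside the rises of C3ar1 and Cfp, and in control they summed to 55.9 to 61.5. In CIA against control 3 of them rose (Ccr2, Cx3cr1 and F13a1) and 1 fell, Ms4a4c, from 42.2 to 46.8 CPM to 2.78 to 13.1. Of 13 neutrophil markers 12 rose in CIA, from a sum of 2129 to 2489 CPM to 6847 to 11465, beside the rises of C3 and C5ar1, and with luteolin over CIA 5 rose and 7 fell, at a sum of 8701 to 9125. Elane, among the 12, entered the comparison of CIA with control only through its luteolin libraries.

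T cell markers, 9 in all, summed to 151 to 168 CPM in control, 317 to 567 in CIA and 328 to 349 with luteolin, with 8 higher in CIA and 3 lower with luteolin over CIA. The 7 B cell markers summed to 1951 to 2013 CPM in control and 401 to 501 with luteolin, with 5 lower in CIA and 2 lower with luteolin over CIA. Of 6 mast cell and basophil markers all rose in CIA and again with luteolin. Of 5 tested dendritic cell markers 3 fell and 1 rose in CIA and 3 rose with luteolin, with Cd209a, not tested, at 0 in every CIA and luteolin library, and of 5 tested markers of stroma and endothelium 2 rose in CIA and 2 fell with luteolin, with Ccl19, not tested, at 0 in every control and CIA library. Among all tested genes 26.6% rose and 24.5% fell in CIA, and 23.1% rose and 24.2% fell with luteolin over CIA. Lists this short cannot be told apart from those shares where only a few of their genes changed. The part of these cell types in the changes of the 8 complement genes was not tested.

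**Figure D5:**
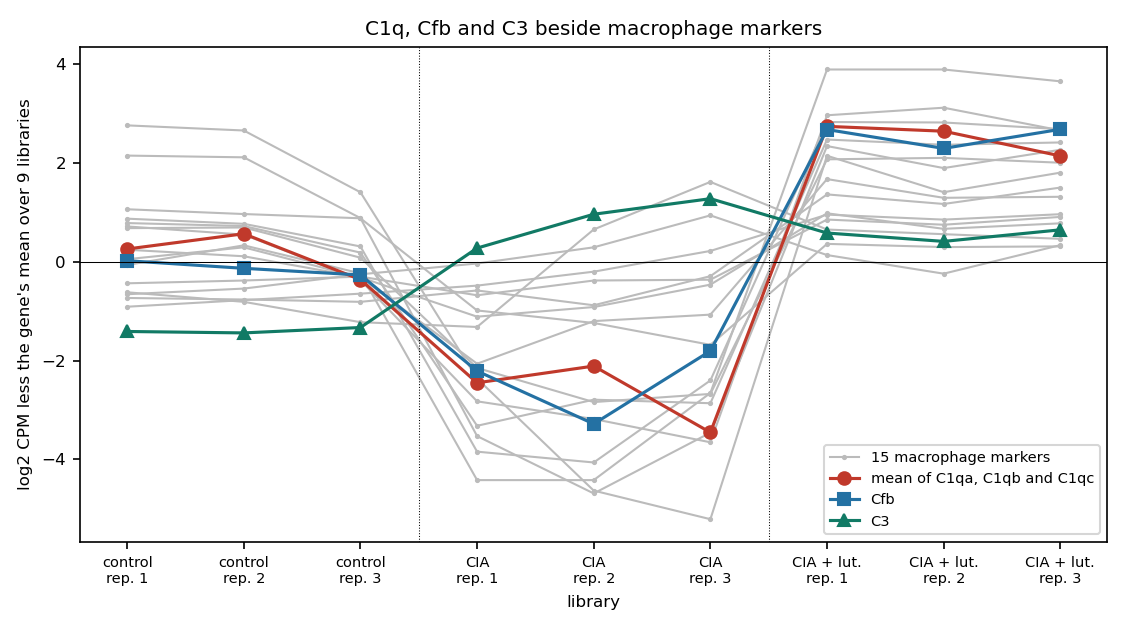
Log2 CPM less the mean of each gene over the 9 libraries (vertical axis) for the mean of the 3 C1q genes, Cfb, C3 and 15 macrophage markers, by library (horizontal axis; lines only join values of a gene). C1q and Cfb are lowest in the CIA libraries, as are most of the grey lines of the macrophage markers, 10 of which fell in CIA, while C3 is lowest in control.

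Across the 9 libraries, likeness of pattern was measured as the root mean square difference of centred log2 CPM, among 11107 named genes with a mean of at least 2 CPM. The 5 genes most like the mean of the C1q chains were Tgfbi, a secreted matrix protein (difference 0.36), the interferon-inducible Ifi211 and Ifi204 (0.38 and 0.44), the secreted protease gene Htra1 (0.47) and the mannose receptor Mrc1 (0.48), where the median candidate was at 2.17. Tgfbi, for example, was at 47.9 to 65.7 CPM in control, 2.58 to 10.4 in CIA and 305 to 351 with luteolin. The 5 most like Cfb were Arhgef37 (0.31), the scavenger receptor Msr1 (0.32), the caveolin gene Cav1 (0.32), Tnfsfm13 (0.38) and Papss2 (0.41), with a median of 2.09. Msr1 was at 11.2 to 14.5 CPM in control, 2.66 to 5.69 in CIA and 104 to 114 with luteolin. Among the 8 genes themselves, C3 and C5ar1 were most alike (0.32) and C1qb and C1qc next (0.60), while C1qa and C3 were farthest apart (2.83). These measures describe the 9 libraries, whose groups set most of each pattern.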

How the data were processed

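RNA of 9 mouse libraries, 3 per group by their labels, was analysed from 1 deposited table of raw read counts. The authors trimmed reads with Trimmomatic 0.36 and counted them over genes using featureCounts (Subread 1.5.1), per the labels' protocols and the submitters' processing notes. The protocol writes the mapping program as STRA 2.5.3a and its reference as CHOK1GS, whereas the notes give mm39, used here for coordinates; strand, the rule for reads on several genes and the annotation release are not given in the sources used here. Even numbers made up 73.4% of low counts (1 to 10) and 52.8% in a range of higher ones, so each mate appears to have been counted. No 2 libraries of a group were duplicates (chi-square per degree of freedom of at least 5.51). The length column, also deposited, gave RPKM.

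Counts were fitted with edgeR 4.0.16 in R 4.3.3 (filterByExpr, TMM factors of 0.95 to 1.02, quasi-likelihood, 1 term per group, all 9 libraries, 2-sided), with Benjamini-Hochberg adjustment over 19348 tested genes. The rule for names took the 8 genes, genes of the list that passed in a comparison with a mean of at least 2 CPM, and the 5 genes most alike; other names were chosen after their values were seen. The fit was tested on simulated data in which 200 of 19348 genes were changed in 1 group. It recovered 46 to 58% of 2-fold and 88 to 96% of 8-fold changes. Far fewer genes changed there than were called in these data, so it cannot check scaling or error rates for them. Alternatives were DESeq2 1.42.0, library totals, upper-quartile factors, other filters, halved counts, only the groups compared, a replicate block and leaving out each library. The genes and lists were chosen with earlier results of these data known. Intervals and limits from counts cover counting error only. The values of 1 gene of the complement list are not reported here.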

Additional observations from a re-analysis of the deposited data

How the results depend on the processing

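The 8 genes kept their counts of calls under most settings tried. Without a filter on low counts, and without CIA replicate 1, C3 was called lower with luteolin over CIA (-0.32 and -0.57), so that 1 of the 8 fell there in place of 0, and the complement list had 7 genes higher in CIA without a filter in place of 4. In a fit of only the groups compared, C1qc was not tested in CIA against control, since its counts were too low. The change of C5ar1 with luteolin over CIA, not called in any setting, crossed 0: it was 0.011 with DESeq2, 0.021 with at least 1 CPM in 3 libraries, 0.042 with library totals only, 0.026 without a filter, 0.034 in a fit of only the groups compared and 0.020 with the replicate block, and between -0.18 and 0.12 when 1 library was left out. When 1 library was left out, 0 to 1 of the 8 fell with luteolin over CIA and 4 to 7 list genes rose in CIA. The kappa B pattern was in 3 promoters and the PU.1 letters in 1 when only the gene's strand was read, where 33.6% and 12.4% of all promoters held them. The cause of these differences was not tested.

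Replicate numbers are shared between groups, but the labels do not say that they pair libraries, and deviations of same-numbered libraries correlated at 0.0065 to 0.143, with 7 of 9 libraries closest to one of their own number. With the replicate block 9794 genes were called in CIA against control, 9148 with luteolin over CIA and 8764 with luteolin over control, and the counts among the 8 genes were as without it. Levels under 6 counts in a library are below what this depth resolves, as for most C1q values in CIA, though not for C1qb in CIA replicate 2 (8 counts) or C1qa in CIA replicate 1 (6 counts), and for C1qc in control replicate 3 (5 counts).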
